A study of Mus musculus with 12 samples.

Results

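The 38 genes described here make the machinery that brings proteins into mitochondria and folds, cuts or degrades them there. They are the rows of the deposited table whose mouse symbol is a Timm or Tomm gene with a number, or 1 of 14 named chaperones, peptidases, proteases and scaffold genes, with a mean of at least 10 normalised counts over the mixed-culture libraries. Of 39 matching genes, 1 was below that mean (Timm8a2, mean 0.542), the nearest gene above it was Timm8a1 (mean 13.1), and none was a pseudogene. The 38 genes are 37 protein-coding genes and Tomm6os, an RNA antisense to Tomm6, out of 36229 rows in all and 17199 that reached the mean. Tomm20 was not analysed here.

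Mouse embryonic fibroblasts of strain C57BL/6 were transduced with an adenovirus that expresses MyoD, the transcription factor that starts the skeletal muscle programme. The 4 genotypes were wild type (WT), Kdm5a-/- (Kdm5a KO, lacking a histone H3 lysine demethylase that binds the retinoblastoma protein), Rb1-/- (Rb1 KO, lacking the retinoblastoma protein) and Kdm5a-/-;Rb1-/- (DKO), each with n = 2 libraries of the whole differentiated culture, called mixed, from RNA depleted of ribosomal RNA. For WT and DKO there were also n = 2 libraries each of myotubes separated by size, left 24 hours to recover and selected with oligo(dT), called purified. Every group had the virus for 24 hours and then 72 hours of culture, with insulin at 10 µg/ml and horse serum at 2% throughout. The deleted part of each gene is not given, and nothing states whether the replicates are separate embryos or cultures. The p-values therefore measure the spread between these libraries and no more.

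Nearly all mitochondrial proteins are made in the cytosol and enter through TOM, the translocase of the outer membrane. From there the presequence translocase TIM23 with its ATP-driven motor leads to the matrix, the carrier translocase TIM22 inserts carrier proteins into the inner membrane, and small TIM chaperones cross the space between the membranes with hydrophobic cargo. In the matrix the presequence is cut off, the protein is folded by heat shock proteins, and damaged proteins are degraded. Skeletal muscle is rich in mitochondria, and muscle cells build up their mass and import capacity as they differentiate.

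Promoter windows, from 250 bases before to 50 after the RefSeq start (build GRCm38.p6), were found for 34 of the 38 genes. The windows below are shown because Timm50 rose, Tomm40 fell in both single knockouts, Tomm22 differed most between DKO and Rb1 KO, and Hspe1 shares its window with Hspd1, transcribed the opposite way from a start 216 bases off. They lie at chr7:28311997-28312296 (minus strand, Timm50), chr7:19715380-19715679 (minus strand, Tomm40), chr15:79670618-79670917 (plus strand, Tomm22) and chr1:55087898-55088197 (plus strand, Hspe1). Capitals mark letters that match E2F (TTTCCCGC, TTTGGCGC, TTTGCCGC or TTTCGCGC), ETS (CCGGAAG) or NRF1 (GCGC, any 2 bases, GCGC) on either strand.
Timm50: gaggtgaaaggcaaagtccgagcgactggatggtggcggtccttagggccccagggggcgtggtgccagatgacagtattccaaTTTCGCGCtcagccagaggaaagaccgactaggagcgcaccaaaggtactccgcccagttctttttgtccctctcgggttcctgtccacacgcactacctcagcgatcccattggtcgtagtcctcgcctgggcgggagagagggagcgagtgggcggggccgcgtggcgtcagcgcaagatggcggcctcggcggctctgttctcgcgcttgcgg
Tomm40: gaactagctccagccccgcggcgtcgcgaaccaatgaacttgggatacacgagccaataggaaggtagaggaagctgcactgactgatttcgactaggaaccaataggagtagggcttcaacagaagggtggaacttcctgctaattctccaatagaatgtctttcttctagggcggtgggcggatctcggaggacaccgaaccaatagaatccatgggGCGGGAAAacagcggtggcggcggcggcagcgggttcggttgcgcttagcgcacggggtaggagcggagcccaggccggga
Tomm22: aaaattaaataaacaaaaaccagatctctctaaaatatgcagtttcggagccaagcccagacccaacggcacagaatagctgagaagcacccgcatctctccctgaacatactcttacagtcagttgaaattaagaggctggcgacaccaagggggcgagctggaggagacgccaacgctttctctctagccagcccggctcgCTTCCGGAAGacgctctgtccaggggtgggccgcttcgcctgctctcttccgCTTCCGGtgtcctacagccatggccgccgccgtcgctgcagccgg
Hspe1: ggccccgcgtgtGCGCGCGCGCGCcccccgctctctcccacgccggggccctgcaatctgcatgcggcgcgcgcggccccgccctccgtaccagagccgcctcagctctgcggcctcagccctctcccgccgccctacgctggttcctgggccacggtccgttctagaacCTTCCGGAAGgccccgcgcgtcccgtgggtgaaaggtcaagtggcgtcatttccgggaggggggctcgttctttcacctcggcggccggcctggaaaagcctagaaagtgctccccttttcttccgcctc

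The E2F letters stood in 2 of the 34 members with a window (5.88%), Timm50 and Tomm40, and in 4.33% of 11570 measured genes. The ETS letters stood in 16 of the 34 (47.1%) and in 18% of measured genes. Tomm22 and Hspe1 each have them overlapping on both strands in an uninterrupted palindrome. NRF1 letters stood in 5 members (14.7%; Dnaja3, Hspd1, Hspe1, Phb and Timm8b) and in 13.9% of measured genes. The E-box CACGTG stood in 8 members (23.5%) against 11.4% of measured genes, and the E-box CAGCTG in 3 (8.82%) against 18.9%. YY1 letters (AAGATGGC) stood in 1 member, Timm50 (2.94%), and in 4.85% of measured genes. In all windows, both strands searched, the shares of 27025 genes were 2.6% for E2F, 9.93% for ETS and 7% for NRF1. These are letter matches in a window and show no binding.

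Depth was 8688604 to 41309134 reads per library, and the 38 genes together held 0.143 to 0.256% of reads. Replicates of these genes differed by a median of 0.08 to 0.136 on the log2 scale in 5 groups and by 0.537 in the purified DKO, where the median over all genes was 0.499. Summed markers of skeletal muscle were 3.667e+05 to 4.0293e+05 normalised counts in WT mixed, 3.619e+05 to 3.8123e+05 in Kdm5a KO, 52542 to 53340 in Rb1 KO and 1.5183e+05 to 1.6637e+05 in DKO. Summed fibroblast markers were 9757 to 9947, 5979 to 6478, 60096 to 70560 and 11992 to 12289 in the same order, and summed proliferation markers were 382 to 420, 574 to 653, 13908 to 15364 and 28865 to 29092. Single markers did not all follow these sums. In Kdm5a KO against WT, 3 of 9 fibroblast markers rose and 4 fell, while 6 of 8 muscle markers fell and 1 rose. Markers of fat cells summed to 43.2 or less in every mixed library. Endothelium markers summed to 94.9 to 99.3 in WT, 122 to 144 in Kdm5a KO, 91.8 to 96.8 in Rb1 KO and 343 to 358 in DKO, where 4 of 4 rose against WT, and macrophage markers to 74.2 to 112, 46.1 to 56.7, 183 to 225.5 and 121 to 129, with 2 of 3 tested rising in Rb1 KO. Smooth muscle markers summed to 39605 to 40045, 28619 to 28750, 41581 to 42248 and 18102 to 18371, and 3 of 4 rose in Rb1 KO. In DKO against WT 2 of these 4 rose and 2 fell. In bulk RNA, fewer cells of a type and less RNA per cell cannot be told apart. The part of these marker differences in the results below was not tested. The Y-linked Ddx3y was at 0 in Kdm5a KO and DKO and at 1080 to 3319 in WT and Rb1 KO, so every comparison across these pairs also sets female against male cells, which cannot be told apart from the effect of Kdm5a. Kdm5a had 1637 and 1871 normalised counts in WT, 1088 and 1192 in Kdm5a KO and 1319 and 1370 in DKO mixed libraries, and Rb1 had 5616 and 5650 in WT and 4457 and 4448 in Rb1 KO. In the mixed libraries labelled DKO, Rb1 stood at 5309 and 5662, a range that overlaps WT (-0.04 ± 0.05, adjusted p = 0.51), so its level does not bear out that label. In purified libraries Rb1 stood at 3500 and 3218 in WT and 2356 and 2104 in those labelled DKO (-0.59 ± 0.19, adjusted p = 0.058), and Kdm5a at 3033 and 2775 against 787 and 614. With the deleted parts not given, whole-gene counts do not check the labels, and DKO below means the libraries labelled so.

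Per kilobase of exon, the most abundant members in WT mixed cultures were Pmpca (985 normalised counts per kilobase), Tomm6 (851), Hspa9 (835), Timm13 (815) and Trap1 (741). The least abundant were Timm8a1 (4.17), Timm21 (39.8), Tomm20l (40.6) and Samm50 (47.3), the last of these a gene of the outer membrane assembly machine. Reads of some members are not fully their own. Of the 40-base stretches in Timm23 transcripts 60.4% also occur in other genes, for Hspd1 47%, for Timm8a1 41.5%, for Phb 31.8% and for Hspe1 26.5%, mostly pseudogenes for Hspd1 and Phb. Tomm6 shares 84.2% of its exon bases with other genes, Tomm6os on the opposite strand among them, and Tomm6os shares 51.3%, so the reads of this pair cannot be told apart unless strand was counted. Timm50, Timm44, Timm10, Pmpcb, Lonp1 and Clpp share no such stretch, but other members overlap a neighbour's exons, above all Tomm40l (64.3% of its exon bases, with Nr1i3), Timm10b (22.1%) and Pmpca (20.4%, with Inpp5e).

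**Figure D1:**
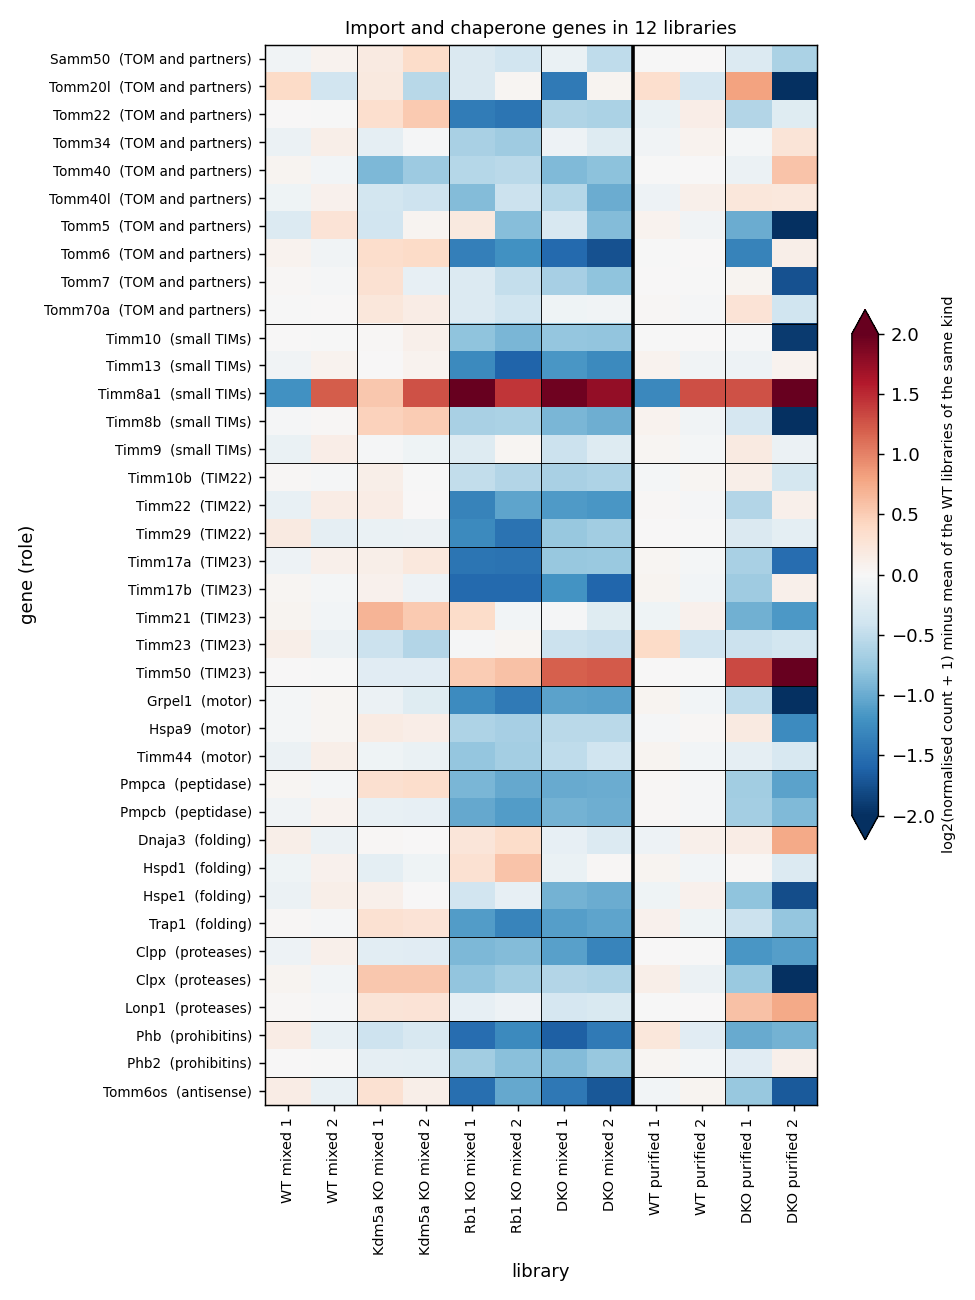
Each row is 1 of the 38 genes, grouped by role, and each column 1 of the 12 libraries; colour is the log2 of the normalised count + 1 minus the mean of the WT libraries of the same kind, mixed left and purified right of the thick line. Blue dominates in Rb1 KO and DKO mixed libraries, the row of Timm50 is red there, and the purified DKO libraries differ from each other.

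Most import genes were lower in the Rb1 knockout than in WT. Of the 38 genes 25 fell and 4 rose, with a median log2 change of -0.66, where over all genes tested 34.3% fell, 36.8% rose and the median was 0.03. The falls reached every group of roles: 6 of 10 TOM genes and partners, 3 of 5 small TIM genes, 3 of 3 TIM22 genes, 2 of 5 TIM23 channel genes, 3 of 3 motor genes, both peptidase subunits, both prohibitins and 2 of 3 matrix protease genes. Only among the 4 folding chaperones did more members rise (2) than fall (1). Summed over members, normalised counts were 37205 and 37302 in WT and 23484 and 23076 in Rb1 KO. Values below are log2 changes of the normalised count + 1 ± standard error with limma's adjusted p, and the plot of 8 members by library shows the counts behind them.

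**Figure D2:**
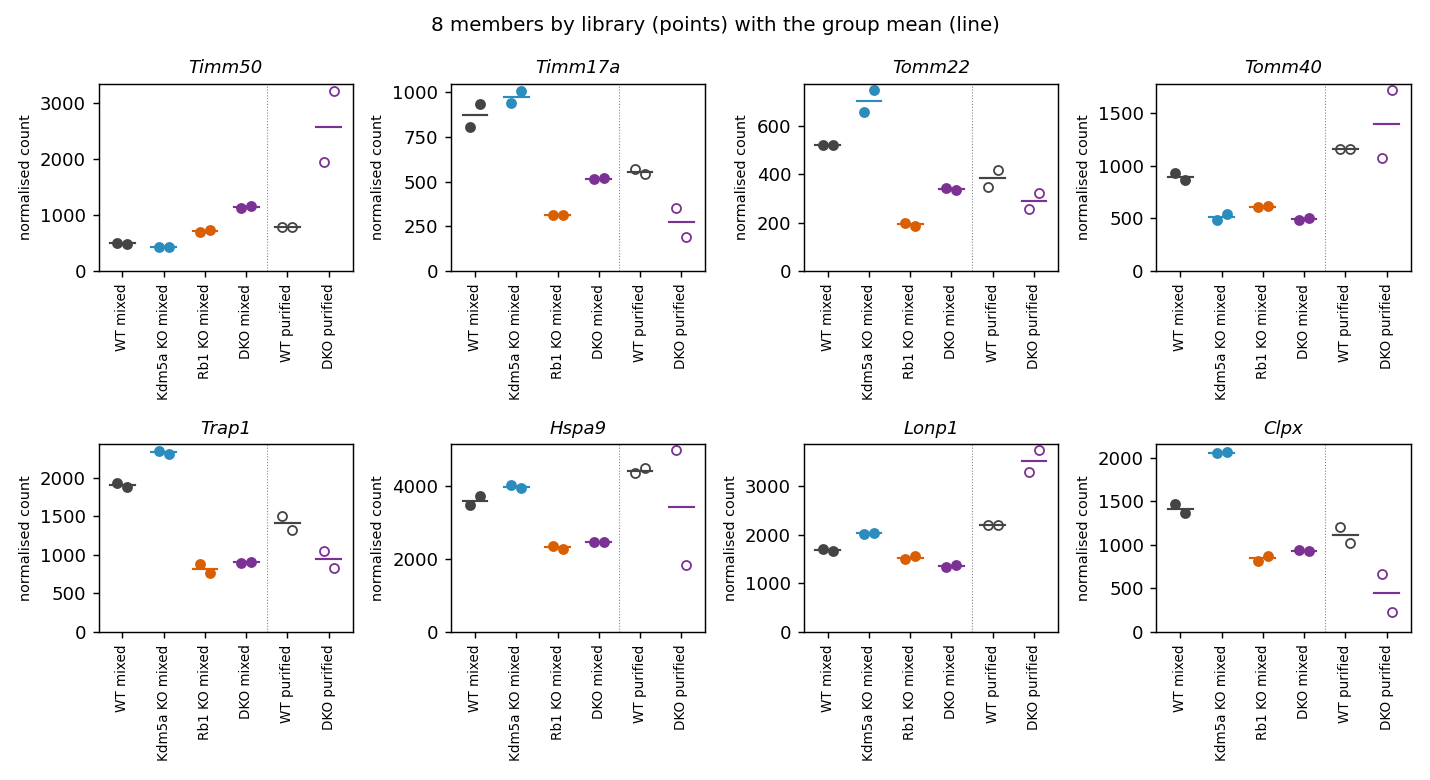
Normalised counts of 8 members in each of the 12 libraries (points), with group means (lines); filled points are mixed cultures, open points purified myotubes, n = 2 per group. Timm50 is highest in DKO, Timm17a, Tomm22, Trap1, Hspa9 and Clpx are lowest in Rb1 KO among mixed cultures, and Tomm40 is low in all 3 mutant mixed cultures.

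At the outer membrane, Tomm22, the central receptor that holds the TOM complex together, read 520.5 and 520.2 in WT and 197 and 187 in Rb1 KO. The Rb1 KO libraries lay below every WT library, a fall of 1.43 on the log2 scale (± 0.11, adjusted p = 1.15e-07). Tomm6, a small subunit that stabilises the complex, read 1006 and 920 in WT and 371 and 415 in Rb1 KO (-1.29 ± 0.10, adjusted p = 1.36e-07). Tomm40, the pore, read 928.5 and 863 in WT and 604 and 613 in Rb1 KO (-0.56 ± 0.09, adjusted p = 0.000164). Tomm70a, the receptor for carrier proteins, fell least of the TOM genes that passed (-0.34 ± 0.06), from 3643 and 3694 to 3030 and 2775. Tomm34, a cytosolic partner, fell as well (-0.67 ± 0.10), and so did Tomm40l, a relative of the pore gene (-0.65 ± 0.19), though that call was lost without Rb1 KO replicate 1 (-0.43, adjusted p = 0.096). Tomm5, Tomm7, Tomm20l and Samm50 did not pass (-0.38 to -0.12).

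The presequence translocase was split. Timm17a and Timm17b, alternative partners of the channel, had the deepest falls of this complex. Timm17a read 808 and 934 in WT and 316 and 312 in Rb1 KO (-1.46 ± 0.10, adjusted p = 2.71e-08). The X-linked Timm17b read 328 and 311 in WT and 108 and 108 in Rb1 KO (-1.56 ± 0.17, adjusted p = 3.56e-06), the deepest fall of any member in this comparison. Timm50, the receptor that hands presequences to the channel, went the other way, from 495 and 490 in WT to 703.5 and 740 in Rb1 KO (0.55 ± 0.09, adjusted p = 7.76e-05), and it was 1 of the 4 rises and the 1 that held under all 15 alternative settings. Timm23, the channel itself, read 896 and 758 in WT and 809 and 848 in Rb1 KO, groups that overlap (0.01 ± 0.10, adjusted p = 0.954). Timm21, which links the channel to TOM, did not pass either (0.16 ± 0.19).

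All 3 motor genes and all 3 TIM22 genes fell. Grpel1, the nucleotide exchange factor of the motor, read 1889 and 1983 in WT and 805 and 729 in Rb1 KO (-1.34 ± 0.08, adjusted p = 7.19e-09). Hspa9, the mitochondrial Hsp70 that pulls and folds proteins, read 3483 and 3715 in WT and 2349 and 2280 in Rb1 KO (-0.64 ± 0.06, adjusted p = 3.86e-07). Timm44, which anchors Hspa9 at the channel, fell by 0.73 (± 0.10) from 883 and 1049 to 560 and 599. Of the carrier route, Timm29 (-1.38 ± 0.11), the pore gene Timm22 (-1.20 ± 0.12) and Timm10b (-0.54 ± 0.11) fell. Timm22 read 1071 and 1323 in WT and 468.5 and 575 in Rb1 KO, with no overlap. Among the small chaperones Timm13 (-1.44 ± 0.11), Timm10 (-0.86 ± 0.17) and Timm8b (-0.64 ± 0.12) fell, and Timm9 did not pass (-0.11 ± 0.15). Timm8a1, with only 1.2 and 10.7 normalised counts in WT and 28.4 and 12.7 in Rb1 KO, passed as a rise (1.99 ± 0.73, adjusted p = 0.0273), but not without WT replicate 1 (0.78, adjusted p = 0.279) or Rb1 KO replicate 1 (1.43, adjusted p = 0.192), nor with edgeR, DESeq2, no filter or the groups fitted alone (1.69 to 1.99, adjusted p = 0.0504 to 0.084).

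In the matrix, both subunits of the processing peptidase fell to a like extent. Pmpca read 4341 and 4094 in WT and 2243 and 2071 in Rb1 KO (-0.97 ± 0.06, adjusted p = 1.16e-08), and Pmpcb 1134 and 1237 against 583 and 548 (-1.07 ± 0.08). Trap1, the mitochondrial Hsp90, read 1936 and 1879 in WT and 878 and 763 in Rb1 KO (-1.22 ± 0.08, adjusted p = 1.6e-08). Hspd1 and Hspe1, the barrel and lid of the chaperonin, start 216 bases apart in opposite directions. Hspd1 read 184 and 209 in WT and 242 and 290.5 in Rb1 KO and passed as a rise (0.43 ± 0.16, adjusted p = 0.0287), lost without WT replicate 1 (0.34, adjusted p = 0.121) or Rb1 KO replicate 2 (0.30, adjusted p = 0.186), with DESeq2 (0.41, adjusted p = 0.0655) or with the groups fitted alone (adjusted p = 0.0553). Hspe1 did not pass (-0.27 ± 0.20), and Dnaja3, a J-domain partner of Hspa9, rose by 0.31 (± 0.08), a call lost without WT replicate 2 (0.20, adjusted p = 0.0589) or Rb1 KO replicate 2 (0.25, adjusted p = 0.0536).

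The quality control genes fell in part. The protease subunit Clpp read 543 and 619 in WT and 311 and 317 in Rb1 KO (-0.88 ± 0.12), and its unfoldase Clpx 1462 and 1360 against 818 and 872 (-0.74 ± 0.07). Lonp1, the other main matrix protease, did not pass (-0.14 ± 0.06, adjusted p = 0.0655), with 1710 and 1660 in WT and 1499 and 1562 in Rb1 KO. The prohibitins, which form a ring scaffold in the inner membrane, both fell, Phb (-1.40 ± 0.19) from 301.5 and 247 to 94.5 and 112 and Phb2 (-0.77 ± 0.07) from 1859 and 1840 to 1136 and 1034.

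**Figure D3:**
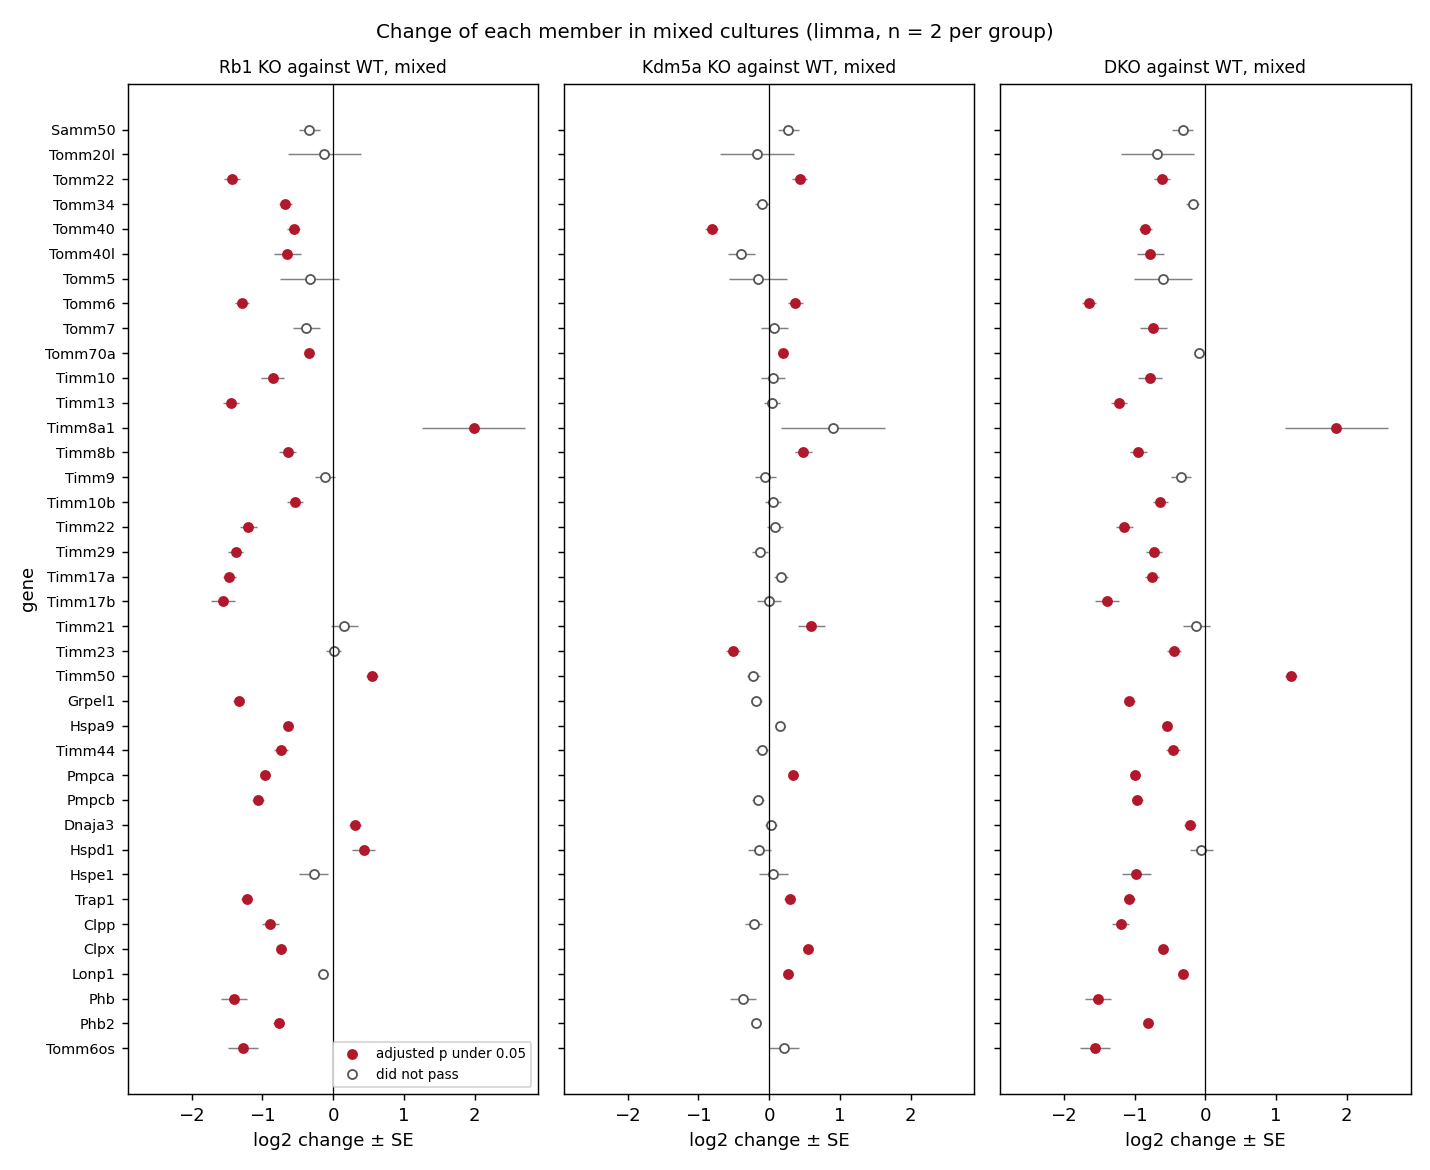
Log2 change against WT of each of the 38 genes in the 3 mutant mixed cultures, as points with bars of 1 standard error (limma, n = 2 per group); filled points passed an adjusted p of 0.05. Most filled points lie left of 0 for Rb1 KO and DKO, and in Kdm5a KO 9 lie right of 0 and 2 left.

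Fewer import genes passed in Kdm5a KO than in Rb1 KO, as over all genes tested, and most that passed were small rises. Of all 38 changes 21 were positive and 17 negative, in a comparison that also sets female against male cells. Of the 38 genes 9 rose and 2 fell, with a median log2 change of 0.05, where 13.4% of all genes tested rose and 13.8% fell. Of the 8 muscle markers 6 fell and 1 rose in the same comparison (median -0.28). The deepest fall was that of Ckm, muscle creatine kinase, from 2827 and 2456 to 1293 and 883. Myh3 was the rise, from 7.708e+04 and 7.691e+04 to 9.914e+04 and 1.074e+05, and the summed muscle markers of the 2 groups overlapped. Clpx read 2055 and 2059 in Kdm5a KO against 1462 and 1360 in WT (0.54 ± 0.07, adjusted p = 0.000155). Pmpca rose to 5261 and 5397 (0.34 ± 0.06, adjusted p = 0.00119) and Lonp1 to 2017 and 2036 (0.27 ± 0.06, adjusted p = 0.00773). These 3 rises and both falls held under all 15 alternative settings. Among genes that passed, Tomm40 had the largest change, a fall from 928.5 and 863 to 482 and 538 (-0.81 ± 0.09, adjusted p = 5.94e-05). Timm23 fell from 896 and 758 to 612 and 547.5 (-0.51 ± 0.10, adjusted p = 0.00276).

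The other 6 rises in Kdm5a KO were less stable. Tomm22 (0.43 ± 0.11) and Timm8b (0.48 ± 0.12) lost their calls without Kdm5a KO replicate 2 (0.34, adjusted p = 0.111, and 0.46, adjusted p = 0.0669). Tomm6 (0.37 ± 0.10) and Trap1 (0.29 ± 0.08) lost theirs without WT replicate 2 (0.31, adjusted p = 0.0857, and 0.27, adjusted p = 0.0579) and without Kdm5a KO replicate 1 (0.39, adjusted p = 0.0695, and 0.28, adjusted p = 0.0849) or 2 (0.35, adjusted p = 0.0925, and 0.30, adjusted p = 0.0593). Timm21 (0.60 ± 0.19) and Tomm70a (0.19 ± 0.06) did not pass without any 1 of the 4 libraries compared (Timm21 0.52 to 0.68, adjusted p = 0.0542 to 0.169; Tomm70a 0.15 to 0.23, adjusted p = 0.0516 to 0.178) nor without either DKO library or the filter (adjusted p = 0.054 and 0.0525). Hspa9 (0.15 ± 0.06) and Timm17a (0.16 ± 0.10) were among the 27 genes that did not pass, Hspa9 passing without WT replicate 2 (0.19, adjusted p = 0.0484), with TMM scaling (0.19, adjusted p = 0.0259) or with edgeR (0.17, adjusted p = 0.04). Timm8a1 also passed without WT replicate 2 (2.11, adjusted p = 0.0348).

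The DKO cultures resembled Rb1 KO in the number of falls and not in every gene. Against WT, 28 of the 38 genes fell and 2 rose (median -0.73), where 33.9% of all genes tested fell and 34.0% rose (median -0.00). Every motor, TIM22, peptidase, prohibitin and matrix protease gene fell, with 5 of 10 TOM genes and partners, 3 of 5 TIM23 channel genes, 3 of 5 small TIM genes and 3 of 4 folding chaperones. Timm50 rose to 1125 and 1152 from 495 and 490, every DKO library above every WT library (1.21 ± 0.09, adjusted p = 6.1e-08). Timm8a1 was the other rise (1.85 ± 0.73, adjusted p = 0.039), lost without any 1 of the WT or DKO libraries but WT replicate 2 (without WT replicate 1, 0.65, adjusted p = 0.374; without DKO replicate 1 or 2, 1.76 and 1.94, adjusted p = 0.141 and 0.108) and without Kdm5a KO replicate 2 (adjusted p = 0.0505), and likewise with edgeR, DESeq2, no filter or the groups fitted alone (1.51 to 1.85, adjusted p = 0.0664 to 0.122).

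Tomm6, its antisense RNA and Phb had the deepest falls in DKO. Tomm6 read 326 and 288 (-1.65 ± 0.10, adjusted p = 1.7e-08), and Tomm6os 88.9 and 73.9 against 267 and 217.5 (-1.56 ± 0.21). Unless strand was counted, reads of Tomm6os may in part be those of Tomm6. Phb read 87.3 and 102 against 301.5 and 247 (-1.52 ± 0.19, adjusted p = 1.07e-05). Timm17b (-1.39 ± 0.17), Timm13 (-1.23 ± 0.11), Clpp (-1.20 ± 0.12), Timm22 (-1.14 ± 0.12), Trap1 (-1.08 ± 0.08) and Grpel1 (-1.07 ± 0.08) followed. Hspe1, which did not pass in Rb1 KO, fell in DKO from 126 and 147 to 70.0 and 67.6 (-0.97 ± 0.20, adjusted p = 0.000929), while Hspd1 did not pass (-0.06 ± 0.16) with 179 and 199 against 184 and 209 in WT. Dnaja3 passed as a fall of 0.22 (± 0.08, adjusted p = 0.0364), lost without WT replicate 1 (-0.11, adjusted p = 0.305), either DKO library (-0.27 and -0.17, adjusted p = 0.0533 and 0.211) or either Kdm5a KO library (adjusted p = 0.0503). It was also lost with edgeR, DESeq2, TMM scaling, no filter or the groups fitted alone (-0.22 to -0.19, adjusted p = 0.0508 to 0.066). Tomm40l fell by 0.78 (± 0.19), lost without DKO replicate 2 (-0.58, adjusted p = 0.0507). Tomm70a (-0.08 ± 0.06), Tomm34 (-0.18 ± 0.10) and Samm50 (-0.32 ± 0.15) did not pass, although Tomm34 did without WT replicate 1 (-0.29, adjusted p = 0.0275) and Samm50 without DKO replicate 1 (-0.52, adjusted p = 0.0279). Timm9 (-0.35 ± 0.15) passed without WT replicate 1 (-0.48, adjusted p = 0.0223) or either Rb1 KO library (-0.35, adjusted p = 0.0434 and 0.045).

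Against Kdm5a KO, the culture that by its label differs from DKO in Rb1, 28 genes fell and 1 rose (median -0.71), where 33.4% of all genes tested fell and 33.7% rose. Rb1 itself read 5079 and 5193 in Kdm5a KO and 5309 and 5662 in DKO, so its level does not bear out that difference. With the deleted part of Rb1 not given, whole-gene counts do not check it either way. Ddx3y was at 0 on both sides of this comparison. Tomm6 read 1230 and 1260 in Kdm5a KO and 326 and 288 in DKO, its largest fall in any comparison (-2.02 ± 0.10, adjusted p = 2.87e-09). Timm8b read 474 and 491 against 182 and 175 (-1.43 ± 0.12), Trap1 2357 and 2309 against 893 and 913 (-1.37 ± 0.08), Pmpca 5261 and 5397 against 2107 and 2129 (-1.33 ± 0.06) and Clpx 2055 and 2059 against 938 and 923 (-1.14 ± 0.07). Timm50 was the 1 rise, from 422 and 422 to 1125 and 1152 (1.43 ± 0.09, adjusted p = 1.33e-08). Tomm40 read 482 and 538 against 487 and 506, and its change did not pass (-0.04 ± 0.09, adjusted p = 0.742). The falls of Dnaja3, Samm50 and Timm44 were lost without DKO replicate 2 (Dnaja3 -0.19, adjusted p = 0.163; Samm50 -0.40, adjusted p = 0.0717), DKO replicate 1 (Timm44 -0.29, adjusted p = 0.0749) or, for Dnaja3, either Kdm5a KO library (adjusted p = 0.0915 and 0.0729), and the other 25 held under all 15 alternative settings. Tomm40l (-0.39 ± 0.19) passed without DKO replicate 1 (-0.59, adjusted p = 0.0476).

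The summed level of these genes was close in DKO and Rb1 KO, at 24388 and 24235 in DKO against 23484 and 23076 in Rb1 KO. Single genes changed both ways, and this comparison also sets female against male cells. Of the 38 genes 8 rose and 8 fell (median -0.07), where 23.1% of all genes tested rose and 24.2% fell, so the shares of members were near those of all genes. Between these cultures all 8 muscle markers rose (median 1.81), 7 of 9 fibroblast markers fell (median -1.96) and 4 of 6 proliferation markers rose (median 1.2). Tomm22 rose from 197 and 187 to 344 and 335 (0.82 ± 0.11, adjusted p = 5.99e-05). Timm17a rose from 316 and 312 to 513 and 519 (0.71 ± 0.10, adjusted p = 6.43e-05), and Timm29 from 552 and 478 to 794 and 826.5 (0.66 ± 0.11, adjusted p = 0.000375). All 3 stayed below their WT libraries. Timm50 rose further above WT, from 703.5 and 740 to 1125 and 1152 (0.66 ± 0.09, adjusted p = 4.26e-05). Tomm34 (0.49 ± 0.10) and Tomm70a (0.25 ± 0.06) also rose, and these 6 rises held under all 15 alternative settings.

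The falls from Rb1 KO to DKO lay in folding and protease genes and in 3 translocase genes. Dnaja3 fell from 1661 and 1809 to 1247 and 1163 (-0.53 ± 0.08, adjusted p = 0.000229) and Timm23 from 809 and 848 to 615 and 600.5 (-0.45 ± 0.10, adjusted p = 0.00292), and these 2 held under all alternative settings. Hspe1 (-0.70 ± 0.20), Hspd1 (-0.49 ± 0.16), Tomm6 (-0.36 ± 0.10), Clpp (-0.31 ± 0.12), Tomm40 (-0.29 ± 0.09) and Lonp1 (-0.18 ± 0.06) fell as well, but each call was lost without Rb1 KO replicate 2 (-0.59, -0.35, -0.28, -0.30, -0.28 and -0.15 in that order, adjusted p = 0.0767 to 0.165) and without DKO replicate 2 (-0.68, -0.56, -0.27, -0.19, -0.32 and -0.20, adjusted p = 0.0649 to 0.353). Clpp and Tomm40 also lost theirs without Rb1 KO replicate 1 (-0.33, adjusted p = 0.108, and -0.30, adjusted p = 0.0616), and Hspe1, Hspd1, Tomm40 and Lonp1 without DKO replicate 1 (-0.72, -0.41, -0.27 and -0.16, adjusted p = 0.0596 to 0.173). Clpp lost it without either Kdm5a KO library too (adjusted p = 0.065 and 0.0652), and with edgeR, DESeq2, TMM scaling, no filter or the groups fitted alone (-0.31 to -0.27, adjusted p = 0.0514 to 0.145). With DESeq2, Lonp1 (-0.14, adjusted p = 0.15) and Tomm40 (-0.25, adjusted p = 0.0788) lost theirs. The rises of Grpel1 (0.26 ± 0.08) and Timm44 (0.28 ± 0.10) were lost without Rb1 KO replicate 2 (0.19, adjusted p = 0.109, and 0.33, adjusted p = 0.0536), DKO replicate 1 (0.25, adjusted p = 0.0827, and 0.34, adjusted p = 0.0635) or DKO replicate 2 (0.27, adjusted p = 0.0634, and 0.22, adjusted p = 0.215), and that of Timm44 without Rb1 KO replicate 1 (0.23, adjusted p = 0.157) or without the filter (adjusted p = 0.0534). Timm13 and Trap1 passed as rises without Rb1 KO replicate 1 (0.38, adjusted p = 0.0174, and 0.24, adjusted p = 0.0299), and Timm8b as a fall without either WT library (-0.31, adjusted p = 0.0474 and 0.0478).

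The test of whether loss of Rb1 acted differently with and without Kdm5a, the interaction term, passed in 7 genes upward and 7 downward, where 18.8% of all genes tested passed upward and 19.5% downward. Upward means that DKO lay above the sum of the single changes. Cultures without Kdm5a were female and those with it male, so this term cannot tell sex apart from Kdm5a. Timm50 had the largest positive term (0.88 ± 0.12, adjusted p = 0.000108): its log2 change was 0.55 in Rb1 KO, -0.22 in Kdm5a KO and 1.21 in DKO. Timm29 (0.78 ± 0.16), Tomm34 (0.60 ± 0.14), Timm17a (0.55 ± 0.14), Tomm40 (0.52 ± 0.13) and Grpel1 (0.44 ± 0.11) also passed upward. For Tomm40 this means that its fall in DKO (-0.85) was smaller than the sum of its falls in Rb1 KO (-0.56) and Kdm5a KO (-0.81). Downward, Timm8b (-0.79 ± 0.17), Tomm6 (-0.73 ± 0.14), Dnaja3 (-0.55 ± 0.12), Lonp1 (-0.45 ± 0.09), Clpx (-0.40 ± 0.10) and Pmpca (-0.36 ± 0.08) passed. All of these but Dnaja3 had risen in Kdm5a KO alone. Timm44 (0.39 ± 0.14) passed upward and Timm21 (-0.88 ± 0.27) downward, Timm44 losing its call without any 1 library but WT replicate 1 (0.26 to 0.44, adjusted p = 0.0533 to 0.165), with TMM scaling (0.35, adjusted p = 0.0676) or without the filter (adjusted p = 0.0696), and Timm21 without Kdm5a KO replicate 1 (-0.80, adjusted p = 0.071), Rb1 KO replicate 1 (-0.67, adjusted p = 0.0794) or DKO replicate 2 (-0.78, adjusted p = 0.0923). Hspe1 (-0.76 ± 0.29) passed without WT replicate 2 (-0.87, adjusted p = 0.0413), with TMM scaling (-0.79, adjusted p = 0.0471) or with edgeR (-0.78, adjusted p = 0.0459). Muscle markers moved with this term as well, all 8 upward (median 1.78), and so did fibroblast markers, 8 of 9 downward (median -1.75).

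In purified myotubes, fewer import genes passed than in mixed DKO cultures against WT, and so did fewer of all genes tested. Over all genes, 33.9% had fallen and 34.0% risen in the mixed cultures. Of 37 genes tested 2 rose and 6 fell between DKO and WT (median -0.45, against -0.05 over all genes), where 21.0% of all genes tested rose and 18.6% fell. Summed muscle markers were 5.2435e+05 to 5.2624e+05 in WT and 1.8516e+05 to 2.0157e+05 in DKO, where 4 of 8 fell and 1 rose. Ckm went against the sum, from 463 and 432 in WT to 2306 and 2298 in DKO. Tnnt3 was also higher in DKO, at 3.114e+04 and 1.401e+04 against 8939 and 7962 in WT. Summed proliferation markers were 590 to 716 in WT and 19311 to 30570 in DKO, where 6 of 6 rose. A difference in cell makeup cannot be told apart from one in RNA per cell. The part of these marker differences in the results was not tested. Timm50 stood at 779.5 and 779 in WT and at 1951 and 3202 in DKO (1.68 ± 0.29, adjusted p = 0.0103), above WT in both libraries. Lonp1 stood at 2193 and 2211 in WT and at 3301 and 3741 in DKO (0.67 ± 0.19, adjusted p = 0.0396). Clpp stood at 1276 and 1254 in WT and at 563 and 589 in DKO (-1.13 ± 0.19, adjusted p = 0.00938). Pmpca fell from 5047 and 4866 to 3072 and 2351 (-0.88 ± 0.21, adjusted p = 0.0283), Pmpcb from 1343 and 1296 to 823 and 716 (-0.78 ± 0.19, adjusted p = 0.0296) and Phb from 337 and 247 to 143 and 149 (-0.98 ± 0.27, adjusted p = 0.0388). Timm21 (-1.05 ± 0.28) and Tomm6os (-1.22 ± 0.36) were the other falls.

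These 8 calls were all lost without either WT purified library (adjusted p = 0.0947 to 0.408), although each value kept its sign. Lonp1 also lost its call with DESeq2 (0.71, adjusted p = 0.0594) or no filter (adjusted p = 0.0504), Phb, Pmpcb and Timm21 with DESeq2 (adjusted p = 0.053, 0.0584 and 0.0818), and Tomm6os with TMM scaling, edgeR or no filter (adjusted p = 0.0554 to 0.0658). The purified DKO libraries differed from each other by more than 2-fold in 9 of the 38 genes. Hspa9 read 4984 and 1838 in them, against 4348 and 4480 in WT. Timm8b read 345 and 33.5, Clpx 659 and 228, Grpel1 1683 and 496, Timm10 364 and 97.3, and Tomm7 280 and 79.5, each higher in replicate 1. Tomm6 went the other way, with 673 and 1854 against 1699 and 1712 in WT. Without DKO purified replicate 1, 19 genes fell and 4 rose (36.0% and 33.8% of all genes), and without replicate 2, 19 fell and 3 rose (33.4% and 28.7%). In these 2 fits the spread came from the WT pair alone, so their calls do not measure how DKO libraries vary. Grpel1 stood at -2.26 without replicate 1 and -0.50 without replicate 2. In the same order Clpx stood at -2.27 and -0.75, Timm17a at -1.52 and -0.65, Hspe1 at -1.77 and -0.80 and Trap1 at -0.77 and -0.43. With all libraries the changes of these genes were -1.38, -1.51, -1.09, -1.29 and -0.60, and none passed. Tomm70a passed as a fall without replicate 1 (-0.40, adjusted p = 0.00953) and as a rise without replicate 2 (0.27, adjusted p = 0.0286).

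**Figure D4:**
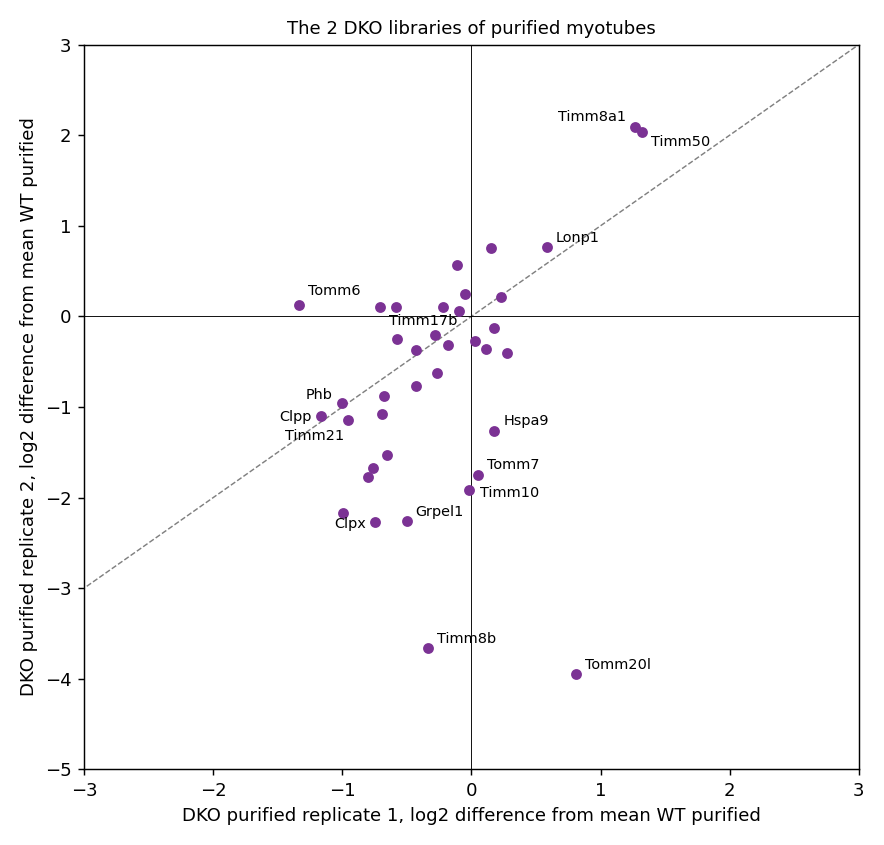
Each point is 1 of the 38 genes, with the log2 difference from the mean of WT purified myotubes in DKO purified replicate 1 (x axis) and replicate 2 (y axis); the dashed line marks equal values. Timm50 and Lonp1 lie high in both, Clpp and Phb low in both, and Timm8b, Hspa9, Grpel1, Timm10 and Tomm7 lie far below the line.

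The DKO effect in purified myotubes was set against that in mixed cultures by the difference of the effects, fitted over all 12 libraries. It passed upward in 7 of 38 genes and downward in 1, where 11.6% of all genes tested passed upward and 13.2% downward. Separation and library protocol differ together between the kinds of library and cannot be told apart. Lonp1 fell in mixed DKO cultures (-0.32) and rose in purified ones (0.67), a difference of 0.99 (± 0.14, adjusted p = 0.000864). Timm13 fell in mixed cultures (-1.23) and stood at -0.02 in purified ones, with 1300 and 1190 in WT and 1161 and 1299 in DKO (difference 1.21 ± 0.20, adjusted p = 0.00191). These 2 differences held under all 18 alternative settings. Tomm40 (1.08 ± 0.27), Phb2 (0.75 ± 0.17), Tomm40l (1.0 ± 0.29), Timm17b (1.09 ± 0.36) and Timm22 (0.90 ± 0.29) passed upward and Timm21 (-0.92 ± 0.30) downward. Phb2 lost its call without DKO mixed replicate 1 (0.69, adjusted p = 0.0567), and Tomm40 without WT mixed replicate 1 (1.03, adjusted p = 0.0577), DKO mixed replicate 1 (1.05, adjusted p = 0.0584) or WT purified replicate 1 (1.08, adjusted p = 0.0513). Tomm40l lost it without either WT mixed or WT purified library or DKO mixed replicate 2 (0.79 to 1.11, adjusted p = 0.0508 to 0.125). Timm17b kept it without DKO purified replicate 1 alone (elsewhere 0.68 to 1.29, adjusted p = 0.0552 to 0.178), Timm22 without either DKO purified library (elsewhere 0.75 to 1.05, adjusted p = 0.06 to 0.149) and Timm21 without any 1 Rb1 KO or DKO purified library (elsewhere -1.03 to -0.81, adjusted p = 0.0676 to 0.164). Without the filter Timm17b, Timm22 and Timm21 did not pass (adjusted p = 0.0663, 0.0644 and 0.0597). A fit with 1 purified DKO library left takes no spread from that group. Timm50, a rise in both kinds of culture, did not pass (0.47, adjusted p = 0.221) and stood at 0.83 without DKO purified replicate 1. Without that library 12 genes passed upward and 11 downward (24.2% and 27.8% of all genes), and without replicate 2, 15 and 1 (18.2% and 20.2%).

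Other genes of the import and folding pathways moved in part with these. Of 21 other import genes 10 fell and 4 rose in Rb1 KO (median -0.20), where 34.3% of all genes fell and 36.8% rose. Among them were Dnajc15, a motor co-chaperone (-1.81 ± 0.12), and Dnajc19 (-0.69 ± 0.05) with falls, and Pitrm1, which degrades cut presequences (0.68 ± 0.07), with a rise. In DKO against WT 11 fell and 2 rose (33.9% and 34.0% of all genes), with Dnlz, a partner of Hspa9, at -1.27 (± 0.15) and Immp2l, an inner membrane peptidase, at -0.94 (± 0.08). From Rb1 KO to DKO 6 rose and 5 fell (23.1% and 24.2% of all genes), with Chchd4, which drives import into the intermembrane space, at 1.03 (± 0.13) and Pitrm1 at -0.62 (± 0.07). Of 7 other inner-membrane and matrix protease genes 5 fell in Rb1 KO and 6 in DKO (34.3% and 33.9% of all genes), with Htra2 at -1.03 (± 0.08) and -1.31 (± 0.08) and Yme1l1 at -0.81 (± 0.05) and -0.62 (± 0.05). In Kdm5a KO, 2 import genes rose and 2 fell, and 1 protease gene fell (13.4% of all genes rose and 13.8% fell).

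Of 11 factors tied to mitochondrial stress, 7 fell and 3 rose in Rb1 KO, beside 34.3% and 36.8% of all genes. Atf5, a transcription factor linked to the mitochondrial unfolded protein response, rose by 1.41 on the log2 scale (± 0.11, adjusted p = 1.39e-07), Atf2 rose by 0.90 (± 0.08) and Atf4 fell by 0.55 (± 0.07). From Rb1 KO to DKO, Atf5 fell by 0.84 (± 0.11). Cytosolic chaperones fell in 10 of 15 cases in Rb1 KO and rose in 3 (the same shares of all genes apply), with the constitutive Hsp70 Hspa8 at -2.14 (± 0.11) and Hsph1, an exchange factor for it, at -1.61 (± 0.06). From Rb1 KO to DKO Hspa8 rose by 1.51 (± 0.11), whereas Hsph1 was lower in DKO against WT (-2.08 ± 0.06) and in purified DKO against purified WT (-2.29 ± 0.28, adjusted p = 0.00443). In the purified libraries, where 18.6% of all genes fell, 2 of 21 import genes fell, Romo1 (-1.46 ± 0.25) and Mtx2 (-1.50 ± 0.41), and the other 19 did not pass.

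Several members start close to a gene transcribed the other way. In Rb1 KO against WT, 34.3% of all genes tested fell and 36.8% rose. Timm8b starts 52 bases from Sdhd, a subunit of respiratory complex II, and both fell in Rb1 KO (-0.64 and -1.24 ± 0.07). Timm23 starts within 80 bases of Parg, a glycohydrolase of poly(ADP-ribose), which rose by 1.03 (± 0.10) in Rb1 KO while Timm23 stood at 0.01. Pmpca and Entr1, 32 bases apart, both fell (-0.97 and -0.47 ± 0.13), as did Timm17b and Pqbp1 (-1.56 and -0.49 ± 0.13). Phb2 and Emg1, 111 bases apart, both fell (-0.77 and -0.46 ± 0.13), and so did Timm10b and Arfip2, 29 bases apart (-0.54 and -0.35 ± 0.13). Arfip2 is among the genes that share exon bases with Timm10b (22.1% of its exon bases in all), so their reads may not be separate. Timm9 did not pass (-0.11) while 2700049A03Rik, 173 bases from it, rose (1.01 ± 0.12), and Grpel1 fell (-1.34) while 2210406O10Rik, 331 bases from it, did not pass (0.41 ± 0.29). In DKO against WT both genes fell again in the pairs of Timm8b, Pmpca, Timm17b and Timm10b. Emg1 did not pass there (-0.21 ± 0.13) while Phb2 fell. Timm23 fell (-0.44) while Parg rose (0.30 ± 0.10), and Grpel1 fell (-1.07) while 2210406O10Rik rose (1.13 ± 0.29). Timm9 did not pass (-0.35) while 2700049A03Rik rose (1.26 ± 0.12), and Hspe1 fell (-0.97) while Hspd1 did not pass (-0.06 ± 0.16). Between Rb1 KO and DKO, Sdhd rose (0.65 ± 0.07) while Timm8b did not pass (-0.31).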

How the data were processed

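The series holds 12 RNA-seq libraries in 6 groups of n = 2, of which 8 are mixed cultures and 4 purified myotubes. The deposited values are a signal per gene and library, read counts that the authors divided by a size factor. The submitters' processing notes name TopHat 1.2.0, the mm9 genome and DESeq. The version of DESeq, the counter, its use of strand and the annotation are not given in the sources used here. Whole reads were recovered from the steps between values (100% of them within 0.01 of a whole number) and used for depth and count-based alternatives. No column was without a sample (0).

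GENCODE M21 served for symbols, exon lengths and exon overlaps and gave a symbol to 30983 of 36229 identifiers (85.5%), and 40-base stretches from its transcripts. It annotates a later assembly than mm9, so none of its coordinates are printed. Promoter windows are RefSeq's (GRCm38.p6, 300 bases, 32851 windows).

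Each comparison used limma 3.58.1 (R 4.3.3) with an intensity trend on log2(normalised count + 1), which shrinks the changes of low genes, over genes with a mean of at least 10 in the libraries fitted. Tests were two-sided with Benjamini-Hochberg adjustment over all genes tested and a threshold of 0.05. Fits were made for the mixed libraries (17199 genes), for the purified ones (16670 genes) and, for the difference of effects, for all 12 (17273 genes). Alternatives were edgeR 4.0.16 and DESeq2 1.42.0 on recovered reads, TMM scaling, a pseudocount of 8, no filter, other sets of libraries, a replicate block and leaving out each library. On simulated counts, the fits recovered 84.4% (mixed) and 76.4% (purified) of changes of 1 on the log2 scale. They called 30 and 4 unchanged genes. Every simulated library had the same spread setting, so the wider spread of the purified DKO libraries was not tested.

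All members may be named; values of each library are given for up to 8 members per comparison with the largest change among those that passed, and for a fixed list of pore, receptor, motor, chaperonin, protease and prohibitin genes, and up to 4 genes per related list with the smallest p. Members, lists and tests were chosen with earlier results of these data known. Group comparisons that share WT or DKO libraries are not independent. No test was made of the list as a whole.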

Additional observations from a re-analysis of the deposited data

Results flagged for a closer look

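The response to loss of Rb1 differed with and without Kdm5a in 14 of the 38 genes, by limma's interaction term in the mixed cultures (log2 scale, adjusted p under 0.05). That is 7 upward and 7 downward, beside 18.8% and 19.5% of all genes tested, so the count is near that of all genes. Sex cannot be told apart from Kdm5a in this term. The term was positive for Timm50 (0.88), Timm29 (0.78), Tomm34 (0.60), Timm17a (0.55), Tomm40 (0.52), Grpel1 (0.44) and Timm44 (0.39). It was negative for Timm21 (-0.88), Timm8b (-0.79), Tomm6 (-0.73), Dnaja3 (-0.55), Lonp1 (-0.45), Clpx (-0.40) and Pmpca (-0.36). The terms of 12 of these genes passed under all 14 alternative settings; those of Timm44 and Timm21 did not.

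The DKO effect differed between purified myotubes and mixed cultures in 8 of the 38 genes, by the difference of the effects over all 12 libraries. That is 7 upward and 1 downward, beside 11.6% and 13.2% of all genes tested. It was higher in purified myotubes for Timm13 (1.21), Timm17b (1.09), Tomm40 (1.08), Tomm40l (1.0), Lonp1 (0.99), Timm22 (0.90) and Phb2 (0.75), and lower for Timm21 (-0.92). Lonp1 and Timm13 passed under all 18 alternative settings and the other 6 did not.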

How the results depend on the processing

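Depth limits Timm8a1 most, with at most 28.4 normalised counts in any mixed library. With n = 2, each call rests on a spread shared across groups and genes. With a library left out, the remaining lone library of its group is assumed to vary like the others.

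Members rising in DKO against WT numbered 1 without the filter, with edgeR, with DESeq2 or with the groups fitted alone, and those rising in Rb1 KO numbered 2 with DESeq2 or the groups fitted alone. Members falling from Rb1 KO to DKO numbered 5 with DESeq2. In purified myotubes 1 rose without the filter, with DESeq2 or with the replicate block, and 13 fell with the block and 15 with all 12 libraries fitted. For purified minus mixed, 0 passed downward without the filter. Leaving the filter off moved the median of all genes by over 0.1 in DKO against WT (0.18), DKO against Kdm5a KO (0.16) and purified minus mixed (-0.17), where more genes were tested. All other counts were within 1.5 times, and every scaling kept the directions called.

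Without 1 library at a time, rises and falls ranged from 2 to 4 and 24 to 25 (Rb1 KO against WT), 3 to 9 and 2 to 2 (Kdm5a KO against WT), 1 to 2 and 26 to 29 (DKO against WT), 6 to 9 and 2 to 9 (DKO against Rb1 KO), 1 to 1 and 26 to 28 (DKO against Kdm5a KO), 6 to 7 and 6 to 8 (interaction), 0 to 4 and 0 to 19 (purified) and 3 to 15 and 0 to 11 (purified minus mixed). Rises in Rb1 KO numbered 2 without WT mixed replicate 1 or Rb1 KO replicate 2, in Kdm5a KO 5 and 3 without its replicate 1 or 2, and falls from Rb1 KO to DKO 2, 4 and 2 without Rb1 KO replicate 2 or DKO mixed replicate 1 or 2.

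The direction called turned with the DKO purified library left out, replicate 1 then replicate 2, for Tomm70a in purified DKO against WT (-0.40 and 0.27) and, in purified minus mixed, for Tomm70a (-0.32 and 0.36), Grpel1 (-1.19 and 0.57), Hspa9 (-0.72 and 0.72), Timm10 (-1.13 and 0.76), Timm8b (-2.71 and 0.61) and Tomm7 (-1.01 and 0.79). The cause was not tested.

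Replicate numbers were not shown to pair libraries: same-numbered libraries of different groups deviated with correlations of -0.047 to 0.053. The replicate block left counts of calls in the mixed comparisons within 1.5 times and gave the 13 falls and 1 rise above in purified myotubes, where Lonp1 did not pass (0.67, adjusted p = 0.0859). Under the block Clpp did not pass from Rb1 KO to DKO (-0.31, adjusted p = 0.0609), nor Timm17b in purified minus mixed (1.09, adjusted p = 0.0655), and Timm9 passed in DKO against WT (-0.35, adjusted p = 0.0414).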
